A study of Mus musculus with 4 samples.

Results

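The Morc family of GHKL-type ATPases has 5 genes in the mouse count tables, Morc1, Morc2a, Morc2b, Morc3 and Morc4, and these were taken by symbol out of 24054 genes. They were followed in 4 RNA-seq libraries of mouse embryonic stem (ES) cells. One library came from wild-type cells (wt26, passage 46), and 3 came from Morc3 rescue clones (T131-3C, T131-3D and T131-3M, called 3C, 3D and 3M here). Each rescue clone is a single clone of 1 Morc3 ko line, itself a single clone that was made from wt26 by CRISPR-Cas9, and it carries a Morc3 cDNA inserted with a PiggyBac transposon. The plasmid listed for untagged Morc3 has a human PGK promoter and a puromycin resistance gene linked to Morc3, and the clones were selected with puromycin. All 4 cultures were feeder-independent cells grown on gelatin in serum and LIF. The ko line was not analysed here, so the comparison is between cells with their own Morc3 and cells with a supplied copy.

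Morc proteins are ATPases of the GHKL fold, shared with Hsp90, MutL proteins and type II topoisomerases. They dimerise on binding ATP and act on chromatin compaction and gene silencing. Morc1 silences transposons in male germ cells, Morc2a works with the HUSH complex, Morc2b is needed in meiosis, and Morc3, which reads methylated histone H3 through a CW zinc finger, sits in PML bodies and acts with Daxx on endogenous retroviruses. Morc4 is the least studied member.

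On mouse build GRCm38.p6, Morc2a lies on chromosome 11 from 3649189 to 3690477, Morc1 on chromosome 16 from 48431237 to 48630905, and Morc3 on the same chromosome from 93832121 to 93876077, all on the plus strand. Morc2b (chromosome 17, 33135588 to 33150499) and Morc4 (chromosome X, 139821635 to 139871692) are on the minus strand. The read pairs had reads of 50 bases. No stretch of 50 bases in any GENCODE transcript of one Morc gene occurred, on either strand, in a transcript of another Morc gene. For Morc3, 0 of 5617 such stretches occurred in a transcript of any other gene, and the same held for 0 of 4699 in Morc2b. For Morc2a, 480 of 6469 were shared, of which 434 were with Tug1, a long noncoding RNA gene on the opposite strand that overlaps its first exons in GENCODE.

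The start-site windows of 4 members (from 250 bases before to 50 after the annotated start, RefSeq, GRCm38.p6) are shown because the rescue copy is driven by another promoter, so that the windows belong to the chromosomal genes only. CG dinucleotides are in capitals, and each window is written 5′ to 3′ on the strand of the gene.
Morc3, chr16:93831871-93832170, plus strand: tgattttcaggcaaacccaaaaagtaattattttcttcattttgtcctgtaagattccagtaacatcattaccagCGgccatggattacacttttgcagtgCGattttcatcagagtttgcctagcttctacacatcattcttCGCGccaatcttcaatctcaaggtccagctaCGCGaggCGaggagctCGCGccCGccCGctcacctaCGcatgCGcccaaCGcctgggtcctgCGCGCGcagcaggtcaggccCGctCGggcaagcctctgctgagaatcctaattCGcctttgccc
Morc2a, chr11:3649187-3649486, plus strand: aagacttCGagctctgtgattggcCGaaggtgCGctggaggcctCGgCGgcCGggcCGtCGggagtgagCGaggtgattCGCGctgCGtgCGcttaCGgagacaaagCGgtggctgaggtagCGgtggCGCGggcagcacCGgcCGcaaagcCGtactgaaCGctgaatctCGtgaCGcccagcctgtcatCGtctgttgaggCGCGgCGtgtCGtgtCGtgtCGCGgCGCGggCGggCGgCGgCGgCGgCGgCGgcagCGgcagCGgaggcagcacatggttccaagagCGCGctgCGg
Morc4, chrX:139871605-139871904, minus strand: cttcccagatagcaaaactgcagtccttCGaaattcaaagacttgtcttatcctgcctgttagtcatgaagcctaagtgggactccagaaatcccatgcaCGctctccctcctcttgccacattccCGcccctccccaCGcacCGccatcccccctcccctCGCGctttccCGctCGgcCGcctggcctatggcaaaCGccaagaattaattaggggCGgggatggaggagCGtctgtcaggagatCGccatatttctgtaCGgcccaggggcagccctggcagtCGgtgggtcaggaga
Morc2b, chr17:33148700-33148999, minus strand: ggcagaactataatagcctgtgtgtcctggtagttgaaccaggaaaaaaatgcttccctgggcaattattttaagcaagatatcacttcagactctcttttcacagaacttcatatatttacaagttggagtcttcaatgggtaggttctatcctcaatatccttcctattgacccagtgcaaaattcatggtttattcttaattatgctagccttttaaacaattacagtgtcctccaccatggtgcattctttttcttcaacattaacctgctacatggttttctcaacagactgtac
The Morc2a window held 46 CG dinucleotides, a number reached by 1.65% of the 32851 windows of the same length. The Morc3 window held 20 and the Morc4 window 16, reached by 26.5% and 33.0% of windows. The printed Morc2b window held 0, as did 5.43% of all windows, while a further Morc2b window (chr17:33139634-33139933) held 13. Both lie inside the span of the gene, which on its strand begins at 33150499. A further Morc2a window (chr11:3658422-3658721) held 0. The median was 7.

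The libraries held between 13620914 and 18789457 sense read pairs on genes, the highest in wild type, and the precision of each count below is given as an exact 95% Poisson interval, which covers counting error only. Wild type also had fewer unmapped read pairs, 14.5% against 21.0% to 23.0% in the clones, and the part this plays in any value here was not tested. The labelled cell type was checked against its markers. The 10 pluripotency markers (Pou5f1, Nanog, Sox2 and others) summed to 4408 CPM (sense counts scaled to library size by edgeR's TMM method) in wild type, and in the clones to between 4551 and 4680. Within this sum Nanog was higher in every clone, at 300 CPM in wild type against 468, 358 and 481 in 3C, 3D and 3M. Pou5f1 was lower in every clone, at 766 CPM against 698, 756 and 720. Klf4 went both ways, at 209 CPM against 180, 247 and 152. Of 7 fibroblast and feeder markers, Col3a1, Dcn and Lum were at 0 in every library and the list summed to between 21.8 and 46.5 CPM. Of 6 neural markers, Neurog2 was at 0 in every library and the sum in wild type was 76.9 CPM, against 43.8 to 52.3 in the clones. Most of this sum was Tubb3, a neuronal tubulin, at 73.8 CPM in wild type and 40.5 to 49.3 in the clones, whereas Pax6 had 0 counts in wild type and 2 to 8 in the clones. The 9 endoderm and mesoderm markers summed to between 6.87 and 12.7 CPM, and the 6 germ cell markers to between 40.3 and 55.1. Ddx4, a germ cell RNA helicase, was present at 22.9 to 29.8 CPM in the clones and at 20.0 CPM in wild type. Mov10l1 went the other way, at 7.03 CPM in wild type and 3.34, 4.26 and 5.16 in 3C, 3D and 3M. So did Sycp3, at 1.26 CPM against 0.687 to 0.968, while Dazl, Stra8 and Prdm1 had clones on either side of wild type.

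Morc3 is the gene that was knocked out in the parent line and supplied again as a cDNA. Its sense count was 3065 in wild type, 8830 in 3C, 7225 in 3D and 9437 in 3M. Scaled to library size, wild type stood at 161 CPM, 3C at 655, 3D at 497 and 3M at 609. All 3 clones stood above wild type, with 3D the lowest of them, and their mean was 587 ± 81.5 CPM (SD, n = 3), which is 3.65 times the wild-type level. Clone by clone the ratio to wild type was 4.08 in 3C (95% interval 3.91 to 4.25), 3.09 in 3D (2.96 to 3.22) and 3.79 in 3M (3.64 to 3.95). The clones also differed among themselves beyond counting error, 3C standing at 1.32 times the Morc3 level of 3D (interval 1.28 to 1.36) and at 1.08 times that of 3M (1.04 to 1.11).

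In edgeR's quasi-likelihood test across 13267 genes, the sense log2 fold change of Morc3 was 1.87 (SE 0.17), a fold of 3.65 with a 95% interval of 2.72 to 4.90. Its unadjusted p was 5.2e-05, the rank of 6 among all genes tested, but the Benjamini-Hochberg adjusted p was 0.108, which misses the study's threshold of 0.01. In all, 1 gene passed, or 0.00754% of those tested. It is the Y-linked helicase gene Ddx3y, which was lower in the clones. With DESeq2, the tool the study used, the adjusted p of Morc3 was 6.3e-23, where 64 of 9727 genes with an adjusted p (0.658%) passed. Leaving out clone 3D gave an adjusted p of 8.3e-09 in edgeR, where 3.17% of genes passed. Because wild type has 1 library among the 4 used here, all of the replicate error is that of the 3 clones, and the test takes it to hold for wild type too. The paper compared wild type with Morc3 ko cells on 3 replicates of each, which were not used here. It also compared rescue with wild type by RNA-seq, and described expression in rescue cells as largely normalized relative to ko. By quantitative PCR it reported slight overexpression of Morc3 in lines rescued with mutant Morc3, which are not the clones used here. It showed Morc3 protein in rescue lines by western blot. An exact permutation test of 3 against 1 cannot go below a one-sided p of 0.25.

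**Figure D1:**
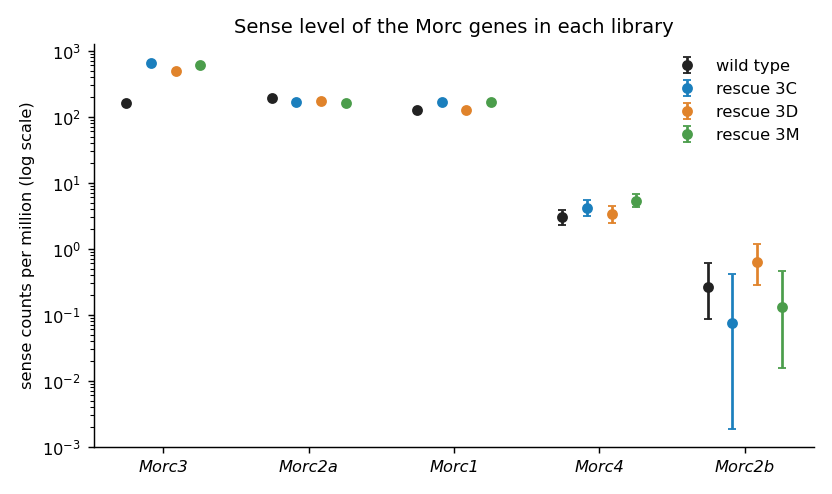
Sense level of each Morc gene in wild type (black) and rescue clones 3C, 3D and 3M (blue, orange and green), in CPM on a log scale, with exact 95% Poisson intervals. Morc3 sits at 161 CPM in wild type, below the clones at 497 to 655, while Morc1 and Morc2a stay between 127 and 192 in all libraries and Morc2b is at or below 9 counts.

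The rescue clones also held reads of Morc3 from the opposite strand. The kit keeps strand, and the column for the opposite orientation held between 1.26% and 1.31% as many counts as the sense column in each library. In this antisense column the Morc3 count was 7 in wild type, 1963 in 3C, 2001 in 3D and 2266 in 3M. The wild-type level was 0.367 CPM, and those of 3C, 3D and 3M were 146, 138 and 146 CPM. Wild type was thus near the bottom of the scale and the 3 clones stood close together, at 143 ± 4.87 CPM (SD, n = 3), 390 times the wild-type level. The ratio of each clone to wild type was between 375 and 399, with counting intervals that together span 182 to 992 because the wild-type count is small.

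Antisense reads were 0.228% of the stranded Morc3 counts in wild type (exact binomial 95% interval 0.0917% to 0.469%). They were 18.2% in 3C (17.5% to 18.9%), 21.7% in 3D (20.9% to 22.5%) and 19.4% in 3M (18.7% to 20.1%). The share was highest in 3D, the clone with the least sense Morc3. The antisense level varied by 3.40% between clones (coefficient of variation) and the sense level by 13.9%. Among 9199 genes with at least 100 stranded counts in every library, the median antisense share was 0.162% in wild type, with clone medians of 0.137% to 0.169%. The Morc3 share in wild type was thus ordinary, with 56.4% of these genes at or below it. The gain of 19.5 percentage points in the clone mean was the largest of the 9199, ahead of Sfi1 at 16.5, whose share was already 28.9% in wild type, and Limd2 at 14.3.

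A test of the antisense column, added after its values were seen and fitted with the sense library sizes, gave Morc3 a log2 fold change of 8.58 (SE 0.20), with a p too small for the fit to represent. The p values of this fit follow a normal curve, whereas the sense fit had 5.65 degrees of freedom for Morc3. They rest on a spread pooled over genes more than on the 3 clones, and cannot be set beside the sense p values. Of 2929 genes with enough antisense counts, 18 passed the adjusted p of 0.01 (0.615%). Morc3 passed under every other way of fitting that was tried, with edgeR, DESeq2 or limma-voom and with any 1 clone left out, at log2 fold changes between 8.51 and 8.61 and adjusted p values of at most 3.0e-07, except under the filter of 10 counts in every library, which its 7 wild-type counts do not pass. Morc3 was the gene of rank 3389 by antisense counts in wild type and of rank 5, 6 and 7 in 3C, 3D and 3M, where it made up 1.13%, 1.08% and 1.12% of all antisense counts.

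**Figure D2:**
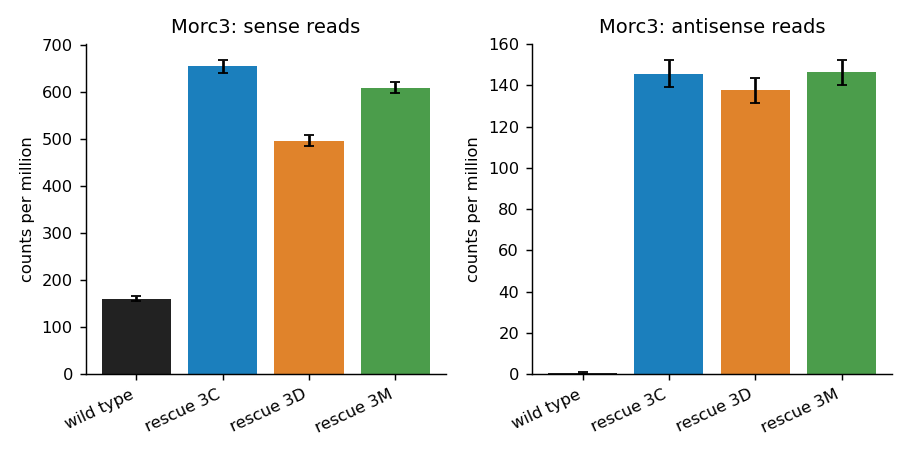
Morc3 reads by strand in each library, in CPM with exact 95% Poisson intervals, sense on the left and antisense on the right, on separate axes that start at 0. Sense reads were present in all 4 libraries, whereas antisense reads stood at 138 to 146 CPM in the clones against 0.367 CPM in wild type.

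**Figure D3:**
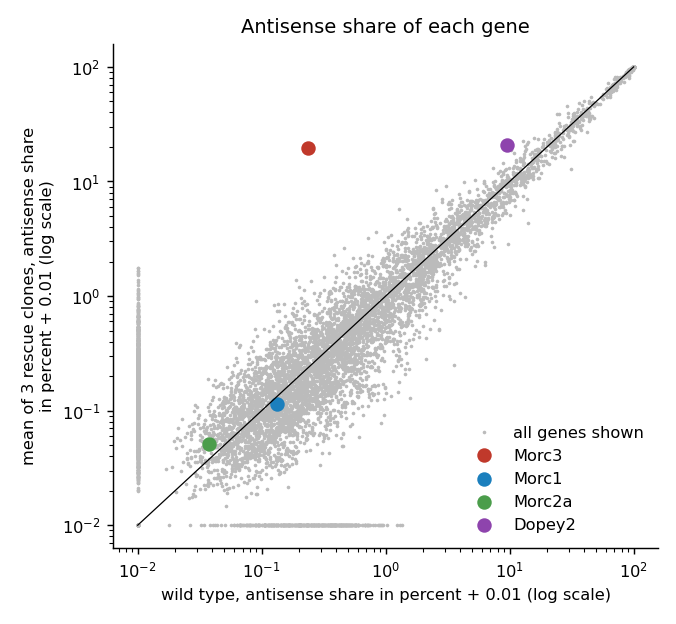
Antisense share of the stranded counts of each of 9199 genes, wild type across and the mean of the 3 rescue clones upward, both in percent plus 0.01 on log scales, with the line of equal shares. Morc3 lies far above the line, from 0.228% to 19.7%, while Morc1 and Morc2a lie near it and Dopey2, the gene next to Morc3, lies above it.

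The other members had next to no antisense reads in any library. Morc1 had between 2 and 3 antisense counts and Morc2a had 1 in each library. Morc4 and Morc2b had 0 in each library, with upper 95% counting bounds of at most 0.274 CPM. The unstranded column equalled the sum of both stranded columns for every member. For Morc3 it therefore mixed both signals, at 161 CPM in wild type and 801, 634 and 755 CPM in 3C, 3D and 3M, and the ratio of the clone mean to wild type was 4.53 in place of the sense ratio of 3.65. Counts per gene do not show where along Morc3 the reads lie, and reads of the transposon copy cannot be told apart from reads of the gene on chromosome 16.

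The antisense column was also higher in the clones at Dopey2, which precedes Morc3 on the same strand and ends 21.5 kb before it. Its antisense count was 45 in wild type, 75 in 3C, 102 in 3D and 105 in 3M, or 2.36 CPM against 6.45 ± 0.777 (SD, n = 3). All clones stood above wild type, with a log2 fold change of 1.45 (SE 0.27, edgeR adjusted p 4.4e-05), but the call was lost with DESeq2 (adjusted p 0.996), without a filter on low counts (0.793) and without clone 3M (0.191). In GENCODE an antisense RNA gene that is not in the count tables, Gm30881, spans chromosome 16 from 93808540 to 93833019 on the minus strand and reaches both the end of Dopey2 and the start of Morc3. In the sense column the Dopey2 counts of wild type, 3C, 3D and 3M were 426, 275, 420 and 394 (log2 fold change 0.16, SE 0.20, edgeR adjusted p 0.816). Chaf1b, a subunit of the chromatin assembly factor CAF-1 that starts 7.82 kb after Morc3, had 1286, 843, 951 and 941 sense counts and a log2 fold change of -0.10 (SE 0.09, edgeR adjusted p 0.719). Its antisense counts were between 1 and 2 in every library.

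Of the 4 members tested in edgeR and limma-voom, 0 passed the adjusted p of 0.01. Over all genes, 1 of 13267 (0.00754%) passed in edgeR and 0 in limma-voom. With DESeq2, 1 member, Morc3, passed, where 0.658% of genes did, and Morc4 had no adjusted p. At an unadjusted p under 0.05 in edgeR there were 2 of the 4, Morc3 and Morc2a. Of all tested genes 10.3% reached that level (5.92% higher and 4.42% lower in the clones). All 3 clones stood above wild type for Morc1, Morc3 and Morc4, though 3D by less than counting error for Morc1, and below it for Morc2a, while 28.7% of tested genes had all clones above wild type and 28.4% had all below.

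Morc2a gave 3653 sense counts in wild type, 2227 in 3C, 2502 in 3D and 2522 in 3M. Scaled, these were 192, 165, 172 and 163 CPM. The clones lay close together and below wild type, at 167 ± 4.75 CPM (SD, n = 3), with clone ratios of 0.862 (95% counting interval 0.818 to 0.909), 0.898 (0.853 to 0.945) and 0.850 (0.808 to 0.894). No pair of clones differed beyond counting error. The log2 fold change was -0.20 (SE 0.07), with an unadjusted p of 0.029 and an edgeR adjusted p of 0.431.

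Morc1 gave 2428 sense counts in wild type, 2228 in 3C, 1854 in 3D and 2551 in 3M, or 127 CPM against 165, 127 and 165 CPM. It split the clones, since 3C and 3M stood above wild type by a ratio of 1.30 (interval 1.23 to 1.38) and 1.29 (1.22 to 1.37), and 3D stood level with it (interval of the ratio 0.942 to 1.06). The log2 fold change over all clones was 0.26 (SE 0.16, edgeR adjusted p 0.616). Without 3D it was 0.37, with an adjusted p of 0.0126.

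Morc4, on the X chromosome, was low in these cells, at 57 sense counts in wild type, 56 in 3C, 49 in 3D and 83 in 3M. The wild-type level was 2.99 CPM, against 4.15, 3.37 and 5.36 CPM for the clones. Its counting intervals overlapped between wild type and clones 3C and 3D, and 3M had 1.79 times the wild-type level (interval 1.26 to 2.56). The log2 fold change was 0.53 (SE 0.33, edgeR adjusted p 0.619). Morc2b was barely detected, at 5 counts in wild type, 1 in 3C, 9 in 3D and 2 in 3M, and it did not pass the filter on low counts. At this depth no difference in Morc2b between wild type and any clone was detectable, while the 1 count in 3C against 9 in 3D gave a ratio of 0.120 (95% counting interval 0.0027 to 0.866).

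**Figure D4:**
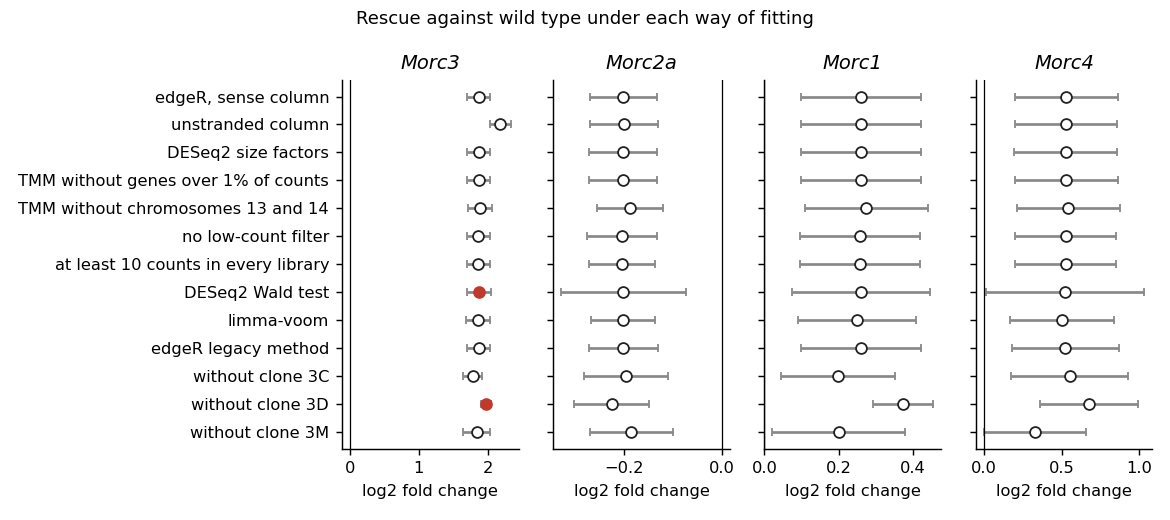
Log2 fold change of each tested Morc gene, rescue over wild type, under the fit of the sense column and 12 other ways of fitting (rows), with standard errors. Red points passed an adjusted p of 0.01 and open points did not, with Morc4 under DESeq2 drawn open though it had no adjusted p. Morc3 lies between 1.78 and 1.97 with the sense column and at 2.18 with the unstranded column, and Morc2a lies below 0 in every row.

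Per kilobase of merged exons, the wild-type sense levels were 29.8 CPM for Morc2a, 29.6 for Morc3, 19.6 for Morc1, 0.494 for Morc4 and 0.0557 for Morc2b. Morc2a and Morc3 did not differ beyond counting error, and their order turned when the longest transcript was used for length, at 33.9 and 38.5 CPM per kilobase, with Morc1 at 31.7. Morc3 stood above 88.6% of 13157 tested genes in wild type and above 97.2% to 98.1% in the clones. In the clones the order was Morc3 at 108 ± 15.0 CPM per kilobase (SD, n = 3), Morc2a at 25.9 ± 0.739, Morc1 at 23.5 ± 3.35, Morc4 at 0.709 ± 0.166 and Morc2b at 0.0582 ± 0.0637. By this length Morc3 thus went from level with Morc2a to well above it, and Morc2a and Morc1 were no further apart than the spread between clones. The rescue cDNA was amplified without the stop codon from a primer that begins with ATG. Morc3 has 2.83 kb of coding sequence against 5.43 kb of merged exons. What this does to the clone levels, percentiles and count ratios of Morc3 was not tested. Morc4 was between 13.4% and 19.9% of the way up the tested genes.

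Genes that flank the members gave the local background. Of the 30 genes nearest to the 5 members (3 on each side), 17 were tested. Under edgeR, DESeq2 and limma-voom alike, 0 were called. Over all genes, edgeR called 0.00754%, DESeq2 0.658% and limma-voom 0. In edgeR 2 of the 17 had an unadjusted p under 0.05, where 10.3% of all tested genes reached that level. They were Dusp18 near Morc2a and Tbc1d8b near Morc4, which are named here after their values were seen. The number at that level was 2 in limma-voom, 1 in DESeq2, 5 without clone 3D and 0 without 3M, and the share over all genes was not taken for these settings. The median log2 fold change of the 17 was 0.14, against 0.01 over all genes tested. Their values ran from -0.52 to 0.90, the highest being that of Cbr3, 141 kb before Morc3 (SE 0.40, edgeR adjusted p 0.517). Cbr3 was at 8.07 CPM in wild type and at 9.20, 17.5 and 18.1 CPM in 3C, 3D and 3M. Dppa2 and Dppa4, pluripotency-associated genes 112 kb and 137 kb before Morc1, had log2 fold changes of 0.06 (SE 0.21) and -0.18 (SE 0.08). In CPM, Dppa2 was at 38.5 in wild type and at 46.4, 31.6 and 42.7 in 3C, 3D and 3M. On the X chromosome Ripply1 and Rbm41, the nearest tested genes beside Morc4, had log2 fold changes of 0.26 (SE 0.49) and 0.14 (SE 0.19). Tug1 and 4921536K21Rik beside Morc2a had 0.07 (SE 0.10) and 0.42 (SE 0.39), and Zfp563 beside Morc2b had 0.10 (SE 0.20). Over whole chromosomes the medians of each clone against wild type were between -0.04 and 0.03 on the log2 scale for chromosomes 11, 16, 17 and X, which carry the members.

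**Figure D5:**
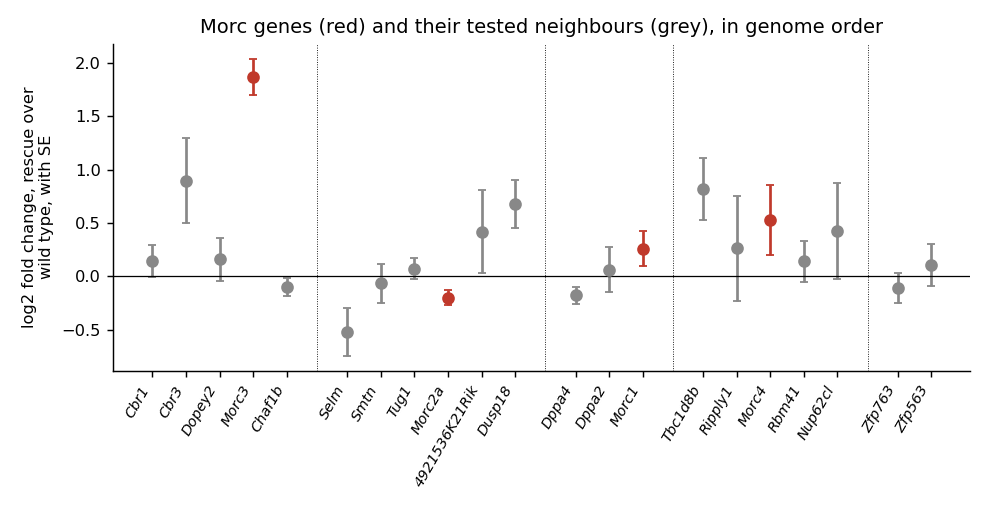
Log2 fold change of sense counts, rescue over wild type, with standard errors, for the tested Morc genes (red) and their tested neighbours (grey), in genome order within each panel. Morc3 stands at 1.87 between Dopey2 at 0.16 and Chaf1b at -0.10, and Morc2b, which was not tested, has no point. Cbr3, beyond Dopey2, is the highest grey point at 0.90.

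By the likeness of the 3 clone differences in log2 CPM, the genes nearest to Morc3 were Sytl4, Anxa1, 4930453H23Rik, Rcan2 and C1qtnf9, at Euclidean distances between 0.241 and 0.477. All of these but C1qtnf9 had fewer than 60 counts in any library, and no gene lay within 0.2 of Morc3. The genes nearest to Morc1 were Zscan26, Slc39a4, Rslcan18, Ndufs4 and Slc27a3, at distances between 0.0349 and 0.0534, and 252 genes lay within 0.2. Zscan26, Rslcan18 and Ndufs4 are on chromosome 13, which holds 3.86% of the genes tested and 78 of the 252 (31.0%). The median log2 difference from wild type over the genes of chromosome 13 was 0.48 in 3C, 0.03 in 3D and 0.48 in 3M. For Morc1, which is on chromosome 16, it was 0.38 in 3C, near 0 in 3D and 0.37 in 3M. Genes of 1 chromosome are not independent of each other, and no test was made of this likeness.

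Among genes that work with Morc3 or with SUMO, the medians were close to those of all genes. Of the 10 genes of this list (Daxx, Atrx, the H3.3 genes, Pml, the SUMO genes and Trp53 among them), all were tested, 0 passed in edgeR, DESeq2 or limma-voom, and 1 had an unadjusted p under 0.05, with a median log2 fold change of 0.02. That p level in edgeR was reached by 10.3% of all tested genes. The shares of all genes that passed were 0.00754% in edgeR, 0.658% in DESeq2 and 0 in limma-voom. Daxx, the H3.3 chaperone, was at 80.8 CPM in wild type and 77.1 ± 3.73 in the clones (log2 fold change -0.07, SE 0.09). Atrx, its chromatin remodelling partner, was at 347 CPM in wild type and 454, 446 and 456 CPM in 3C, 3D and 3M (log2 fold change 0.38, SE 0.06), with an edgeR adjusted p of 0.188, and 0.0032 without clone 3D. Pml, the scaffold of PML bodies, was at 153 CPM against 187, 155 and 184 CPM (log2 fold change 0.20, SE 0.12), and H3f3b, which encodes H3.3, had a log2 fold change of -0.07 (SE 0.07).

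Of the 5 HUSH complex and H3K9 methylation genes that act with Morc2a, 0 passed in edgeR, DESeq2 or limma-voom. Their median log2 fold change was 0.09. At an unadjusted p under 0.05 in edgeR there were 2, where 10.3% of all tested genes reached that level. These 2 genes are HUSH subunits on chromosome 14, whose genes had median log2 differences from wild type of 0.34 to 0.35 in the clones. Whether the chromosome bears on either gene was not tested. Fam208a (also called Tasor) stood at 338, 338 and 352 CPM in the clones against 259 CPM in wild type (log2 fold change 0.41, SE 0.06). Mphosph8 was at 126 CPM in wild type and 147, 159 and 154 CPM in 3C, 3D and 3M (log2 fold change 0.29, SE 0.08, edgeR adjusted p 0.323). Without clone 3D, Fam208a had an adjusted p of 0.0033. Setdb1, the H3K9 methyltransferase, had a log2 fold change of 0.09 (SE 0.07) and its partner Atf7ip -0.11 (SE 0.07). Pphln1, the further HUSH subunit, had 0.04 (SE 0.13).

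The germline retrotransposon silencing genes, among which Morc1 acts in male germ cells, had the lowest median of the lists used here. Among its 12 genes, 11 were tested, with a median log2 fold change of -0.43. Of these, 0 passed in edgeR or limma-voom and 1, Dnmt3a, passed with DESeq2. Over all genes, 0.00754% passed in edgeR, 0 in limma-voom and 0.658% with DESeq2. At an unadjusted p under 0.05 in edgeR the list had 2, Dnmt3a and Mov10l1, both lower. Of all tested genes 10.3% reached that level (4.42% lower). Mov10l1 had a log2 fold change of -0.71 (SE 0.26). The sense count of Dnmt3a, a de novo DNA methyltransferase, was 3179 in wild type, 1055 in 3C, 921 in 3D and 966 in 3M, or 167 CPM against 78.3, 63.3 and 62.4. Its log2 fold change was -1.30 (SE 0.13), with an edgeR adjusted p of 0.108 and a DESeq2 adjusted p of 1.4e-09. Dnmt3l, its catalytically inactive cofactor, stood at 235, 95.5 and 161 CPM in the clones against 331 CPM in wild type (log2 fold change -1.02, SE 0.41, edgeR adjusted p 0.489). Without clone 3D, the lowest of them, its log2 fold change was -0.75 with an adjusted p of 0.0066, and that of Dnmt3a was -1.25 with an adjusted p of 4.7e-05. The list's highest values were those of Mael, at 0.30 (SE 0.40), and Tdrd9, at 0.20 (SE 0.72), both at low counts.

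Of the 16 other GHKL ATPases, all tested, 0 passed in edgeR or limma-voom and 1, Top2b, passed with DESeq2, and the median log2 fold change was -0.02. Top2b, a type II topoisomerase, stood at 85.7, 84.0 and 88.8 CPM in the clones against 50.5 CPM in wild type. The log2 fold change of Top2b was 0.77 (SE 0.08), with an edgeR adjusted p of 0.111 and a DESeq2 adjusted p of 9.4e-05. It too lies on chromosome 14, and its value is above the medians of 0.34 to 0.35 over that chromosome. Piwil2 of the germline list is also there and had -0.13 (SE 0.21). A part played by the chromosome was not tested. Without clone 3D, Top2b passed in edgeR as well (adjusted p 0.00043). Hsp90b1, the Hsp90 of the endoplasmic reticulum, had a log2 fold change of 0.22 (SE 0.06). The cytosolic Hsp90 genes Hsp90aa1 and Hsp90ab1 had 0.08 (SE 0.05) and -0.03 (SE 0.06). The lowest values were those of Pdk4, a pyruvate dehydrogenase kinase, at -0.25 (SE 0.23), and of the MutL gene Mlh3, at -0.21 (SE 0.12).

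Both other genes with a CW domain in the tables were tested and 0 passed in edgeR, DESeq2 or limma-voom, though both had an unadjusted p under 0.05. The same p level in edgeR was reached by 10.3% of all tested genes. The shares of all genes that passed were 0.00754% in edgeR, 0.658% in DESeq2 and 0 in limma-voom. Kdm1b, a histone demethylase, was at 18.6 CPM in wild type and 30.1, 22.6 and 30.3 CPM in 3C, 3D and 3M (log2 fold change 0.57, SE 0.20). It lies on chromosome 13, and whether that plays a part was not tested. Zcwpw1, a meiotic histone reader, stood at 8.16, 8.04 and 9.68 CPM in 3C, 3D and 3M against a wild-type level of 13.1 CPM (log2 fold change -0.60, SE 0.17). Their edgeR adjusted p values were 0.435 and 0.355, and without clone 3D Kdm1b passed, at a log2 fold change of 0.70 and an adjusted p of 0.0083.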

How the data were processed

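The 4 libraries were grouped by their labels. Per the labels, total RNA was depleted of ribosomal RNA and sequenced as directional libraries. The authors aligned read pairs to mm10 with STAR and deposited its gene counts without normalization, in an unstranded, a forward and a reverse column. The annotation and the STAR version are not given in the sources used here. The reverse column held the sense reads. Rows that name no gene stayed out of library sizes and tests, so 52.7% of read pairs were used in wild type and 45.1% to 47.0% in the clones. In R 4.3.3, edgeR 4.0.16 (glmQLFit and glmQLFTest, TMM, filterByExpr) tested rescue against wild type at an adjusted p of 0.01. Alternatives used DESeq2 1.42.0, limma 3.58.1, other columns, scalings and filters, and left out each clone. The steps were tested on simulated data. Intervals on log2 fold changes used the fitted degrees of freedom. Lengths came from GENCODE vM21 transcripts and positions from RefSeq. Named genes are the members, the 2 highest and 2 lowest genes of each list, called genes, further partners (Daxx, Atrx, Setdb1, Mphosph8, Hsp90aa1 and Hsp90ab1), the nearest tested neighbours with Dppa2 and Dppa4, and the 5 nearest patterns. Sfi1, Limd2, Dusp18, Tbc1d8b, Cbr3, Piwil2 and the markers named singly were chosen after their values were seen. The members and lists were chosen with earlier results of these data known.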

Additional observations from a re-analysis of the deposited data

Results flagged for a closer look

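Antisense reads of Morc3 were above the wild-type level in every rescue clone, at a mean of 143 CPM against 0.367 CPM in wild type, whose upper 95% counting bound was 0.756 CPM. The same held for Dopey2, the gene before Morc3, at a mean of 6.45 CPM against 2.36 CPM in wild type, with an upper bound of 3.16 CPM. Both come from the column for the opposite strand, which the comparison of rescue with wild type does not use, and both were found among the 5 members and their 30 neighbours. Where along each gene these reads lie was not tested.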

How the results depend on the processing

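Of 48 recomputed sense log2 fold changes of the 4 tested members, none changed direction and 46 kept their side of the adjusted p of 0.01. The 46 include Morc4 with DESeq2, which had no adjusted p and was counted as not passing. The exceptions were Morc3 with DESeq2 (log2 fold change 1.87, adjusted p 6.3e-23) and without clone 3D (1.97, 8.3e-09), against an adjusted p of 0.108 with all libraries. It was 0.0449 with the unstranded column (2.18), 0.0245 without 3C (1.78) and 0.516 without 3M (1.84). The number of members called was 0 with all libraries, 1 with DESeq2 and 0 or 1 when 1 clone was dropped, the 1 being without 3D. All genes called numbered 1 with all libraries, 64 with DESeq2, 0 with limma-voom, with edgeR's legacy method and with at least 10 counts in every library, and from 0 (without 3M) to 420 (without 3D) when 1 clone was dropped. In the antisense column, whose alternatives were chosen after seeing the data, genes called numbered 18, against 1 with no low-count filter or with DESeq2 and 8, 30 and 1 without 3C, 3D and 3M. Dopey2 kept its antisense log2 fold change but lost its call with no low-count filter (1.45), with DESeq2 (1.46) and without 3M (1.42), within a range of 1.39 to 1.54 when each clone was left out. Without 3D, edgeR also called Atrx, Fam208a, Dnmt3a, Dnmt3l, Top2b and Kdm1b, none of which it called with all libraries. The cause of these changes was not tested. Morc2b could be fitted only without a filter and with DESeq2. No paired analysis was possible because wild type has a single library, so the groups have only 1 replicate number in common. The depth limits Morc4 and Morc2b, with at most 83 and 9 counts in any library.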

Other observations

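Hsp90aa1, a GHKL ATPase outside the Morc family, differed in the antisense column in the opposite direction to Morc3. It had 46 antisense counts in wild type and 2, 7 and 7 in 3C, 3D and 3M, with a log2 fold change of -2.69 (SE 0.42, edgeR adjusted p 1.6e-07). Its sense counts were 56696, 42917, 44665 and 49263. The call was lost with DESeq2, with limma-voom and without a low-count filter, and without clone 3M the adjusted p was 0.0494. It was named after its values were seen.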
